A study of Mus musculus with 88 samples.

Results

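The 49 genes described here encode subunits of the mitochondrial respiratory chain and are 49 of the 54532 genes in the count table. They were chosen by symbol: 13 are encoded in mitochondrial DNA (the mitochondrial members) and 36 in the nucleus (the nuclear members). All 49 passed the filter on low counts. The nuclear members hold 15 subunits of complex I, 4 of complex II, 4 of complex III, 8 of complex IV, 4 of complex V, and cytochrome c. The study sequenced polyadenylated RNA from the cortex of female and male C57BL/6 mice, and asks how the cortex of females and males responds to a focal contusion. In controlled cortical impact a driven tip strikes the exposed cortex. Here a 2 mm tip struck the right somatosensory cortex of 8 to 9 week old mice through a 3 mm craniotomy, to a depth of 1 mm at 6.0 m/s and for 100 ms, under isoflurane. The injured mice also received buprenorphine at 0.05 mg/kg and saline. Naive mice had none of this, and no group had surgery without impact, so impact, surgery and drug cannot be told apart.

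Each animal was perfused and gave 2 punches of 4 mm, 1 centred on the injury (ipsilateral) and 1 from the other hemisphere (contralateral); the right punch of a naive mouse carries the ipsilateral label. Of naive mice there were 7 females and 6 males. Another 7 females and 8 males were taken 24 h after the impact, and the 72 h group held 9 females with 7 males. The ipsilateral library of male PM1 was left out because its labels contradict each other on sex, which leaves 6 males with both sides at 72 h, 43 animals with both sides, and 87 of 88 libraries. Its transcripts are female, and the ipsilateral library labelled female from animal PF1 holds male transcripts, so the side difference of PF1 may join tissue of different animals. PF1 is kept in the counts of animals below. Without PF1 and PM1 the 9 mitochondrial calls between the sides at 72 h all remained, and 21 of 23 nuclear calls, Atp5b and Ndufa5 being lost. The labels name 3 batches: A with naive and 24 h mice, B with mice of every time, and C with 72 h mice alone. Nothing more is said about how the animals differ, so p-values measure the spread between these mice.

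The respiratory chain passes electrons from NADH and succinate through complexes I to IV to oxygen, and complex V uses the proton gradient this builds to make ATP. Mitochondrial DNA encodes a few core subunits of complexes I, III, IV and V, transcribed as long precursor RNAs that are then cut into single messengers. All other subunits, the whole of complex II and cytochrome c are transcribed in the nucleus and imported. Neurons depend on this chain for most of their ATP, and loss of respiration is a known early feature of contused cortex.

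Total counts per library ran from 10.6 to 26.36 M (median 16.25 M). Both libraries of the 72 h female LF3 stood apart from all others and enter with and without that animal below. Their transcripts tilt toward short genes. The tilt is a slope on log2 gene length, the length of all annotated exons, over 23923 nuclear genes. It is taken on each gene's log2 level minus its mean over all libraries, LF3 included, so 0 is the average library. The slope was -0.198 contralaterally and -0.1735 ipsilaterally in LF3, against -0.0606 to 0.0313 and 0.0174 to 0.0444 in the other 72 h libraries. The mitochondrial members held 7.706 and 10.303% of counts in LF3, against 2.216 to 3.588% and 2.529 to 3.188% in the others. The contralateral library of male LM2 had the next lowest tilt of the 72 h libraries, -0.0606. Neuron markers fixed for the cortex were all measured, and 12 of 12 passed the filter, with a summed level of 8157 to 11160 CPM (counts scaled to a common library size, edgeR's cpm) in naive contralateral punches.

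3 places on mitochondrial DNA show why the counts of neighbouring members cannot be fully separated, because a read inside them fits both genes. They are given on the GRCm38 reference as written 5′ to 3′ on the strand numbered in it, and capitals mark the bases that both genes share.
mt-Atp8 and mt-Atp6, same strand, chrM:7907-7969: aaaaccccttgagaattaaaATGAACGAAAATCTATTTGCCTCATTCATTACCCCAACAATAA
mt-Nd4l and mt-Nd4, same strand, chrM:10147-10173: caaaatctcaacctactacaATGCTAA
mt-Nd5 and mt-Nd6, opposite strands, chrM:13532-13565: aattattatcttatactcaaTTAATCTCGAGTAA
The shared stretches are 43, 7 and 14 bases long. mt-Atp6 and mt-Co3 also share 1 base. No source used here gives the counting program or strand setting, so the last pair cannot be told apart in the shared bases. If strand was ignored, reads of the opposite strand anywhere in mt-Nd6 also count for it. How much of its level that makes was not tested.

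Copies of mitochondrial DNA in the nuclear genome span more bases of the members than these shared stretches do. mt-Atp6, mt-Co2, mt-Co3, mt-Nd3 and mt-Nd4l each have a nuclear copy over nearly their whole length, at 99.7 to 100% identity: Gm10925, Gm28661, Gm28437, Gm28438 and Gm10222, all on chromosome 1. mt-Atp8 lies between copied genes, and mt-Nd4 is copied over its first 876 of 1378 bases at 100% identity (Gm28439). mt-Co1 has a copy of its whole 1545 bases on chromosome 2 at 97.6% identity (Gm13340) and a copy of 483 bases on chromosome 1 at 99.8% (Gm29216). No copy is listed for mt-Nd1, mt-Nd2, mt-Nd5, mt-Nd6 and mt-Cytb. In naive contralateral punches the median was 12300 CPM per kb for mt-Co1, 6130 for mt-Cytb, 5610 for mt-Nd1, 3680 for mt-Nd2, 2850 for mt-Nd6, 2820 for mt-Nd4 and 2630 for mt-Nd5. For the 5 copied at 99.7% or more over nearly their whole length and for mt-Atp8 it was 128 for mt-Co2, 98.7 for mt-Atp6, 63.9 for mt-Co3, 23.5 for mt-Nd4l, 8.21 for mt-Nd3 and 2.38 for mt-Atp8. Reads that fit a copy as well as the gene may have been dropped or shared by the authors' counting, so the levels of all copied members are uncertain, mt-Co1 and mt-Nd4 included, and the 5 members with no listed copy are also counted alone.

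**Figure D1:**
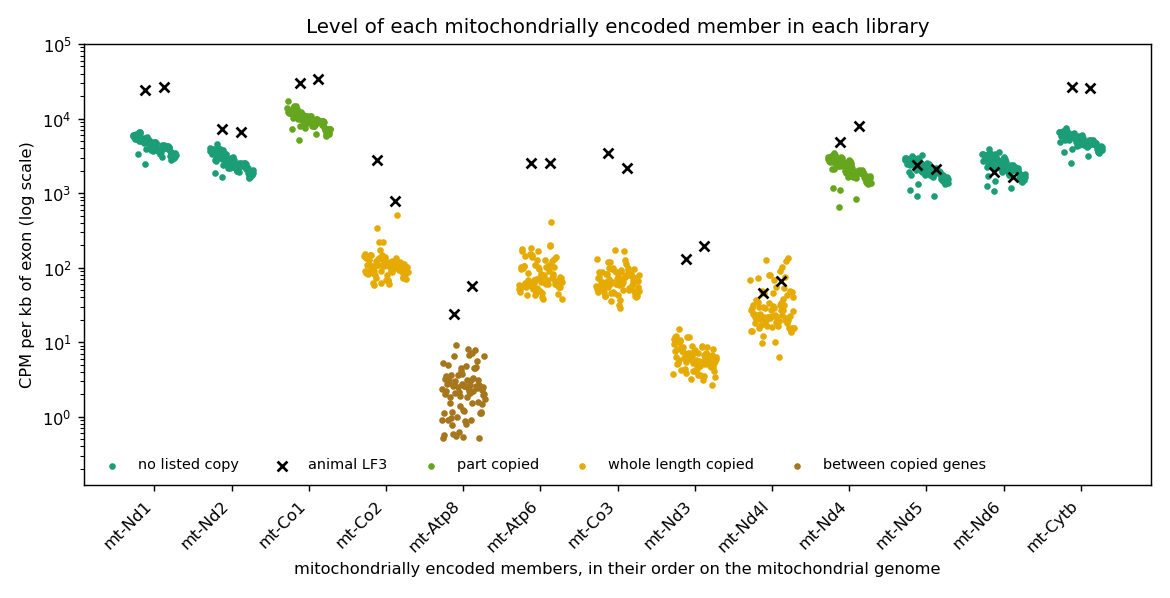
Level of the 13 mitochondrially encoded members in each assigned library, in CPM per kb of exon on a log scale, ordered along the mitochondrial genome. Within a gene the points run from naive to 24 h to 72 h, and crosses mark LF3. In 7 genes the naive contralateral medians are 2630 to 12300 CPM per kb, and in mt-Atp8 and the 5 copied at 99.7% or more over nearly their whole length 2.38 to 128.

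Of the nuclear members, 28 of 36 matched a promoter in the RefSeq table (GRCm38.p6). A match to the NRF1-type motif (GCGC, any base, then TGCGC), searched on both strands from 250 bases before to 50 after each listed start, was found for 7 of the 28 (25.0%), against 5.19% of the 27025 genes in the table. The ETS-type motif CCGGAAG was found for 6 of 28 (21.4%), against 9.93%. In the 250 bases before the start alone, a window added after seeing the data, the counts were 6 of 28 against 4.23% and 3 of 28 against 7.83%. The motifs do not overlap each other, and a match is a description of letters, not a site. 3 promoters are shown, each as the 250 bases before the start that RefSeq gives, with motif letters in capitals: Ndufs7 and Ndufs3 were lower on the injured side at both times, and Cox6a1, which has both motifs, passed the test at neither.
Ndufs7, + strand, chr10:80249199-80249448: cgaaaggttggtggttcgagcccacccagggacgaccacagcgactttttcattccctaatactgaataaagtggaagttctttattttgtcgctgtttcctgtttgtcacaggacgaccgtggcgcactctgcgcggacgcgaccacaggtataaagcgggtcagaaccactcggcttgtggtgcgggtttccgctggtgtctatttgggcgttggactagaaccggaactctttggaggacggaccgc
Ndufs3, - strand, chr2:90904722-90904971: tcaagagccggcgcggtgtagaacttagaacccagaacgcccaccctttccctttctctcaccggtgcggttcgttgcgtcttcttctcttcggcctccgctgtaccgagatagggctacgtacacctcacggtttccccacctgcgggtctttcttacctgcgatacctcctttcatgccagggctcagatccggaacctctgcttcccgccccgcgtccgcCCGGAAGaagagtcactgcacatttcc
Cox6a1, - strand, chr5:115348959-115349208: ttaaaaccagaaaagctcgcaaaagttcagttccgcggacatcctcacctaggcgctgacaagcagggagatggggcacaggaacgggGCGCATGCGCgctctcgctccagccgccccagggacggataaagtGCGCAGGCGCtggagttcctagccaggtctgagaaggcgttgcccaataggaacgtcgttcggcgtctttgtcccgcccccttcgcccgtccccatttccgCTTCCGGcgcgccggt
The window of Ndufs7 holds neither set of letters, that of Ndufs3 the ETS-type motif once, and that of Cox6a1 both. The gene models of GENCODE M21 begin further upstream, so 250, 106 and 23 bases of these windows lie inside the genes Ndufs7, Ndufs3 and Cox6a1 as annotated there.

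The side difference, the log2 ratio of ipsilateral to contralateral within an animal, was tested with edgeR's quasi-likelihood test with the animal as a block and Benjamini-Hochberg adjustment over 19946 genes. At 24 h 6 of 13 mitochondrial members and 3 of 36 nuclear members were lower and none was higher. At 72 h 9 mitochondrial and 22 nuclear members were lower, and 1 nuclear member, Sdhc, was higher. Across all genes 24.1% were called lower and 23.7% higher at 24 h, and 30.6% and 31.1% at 72 h. The medians were -0.24 and -0.02 (mitochondrial, nuclear) at 24 h and -0.33 and -0.15 at 72 h, against -0.02 over all genes at each time. In bulk tissue fewer cells of a type and less RNA per cell cannot be told apart. In naive mice no member was called (0% of all genes in each direction) and in this fit and with DESeq2 none reached an unadjusted p under 0.05. With no filter on low counts 5 of 13 mitochondrial members did, and without LF3 and LM2 2 did. All 13 mitochondrial members nevertheless had a negative estimate there (median -0.11), which is why the change from naive is tested separately below.

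**Figure D2:**
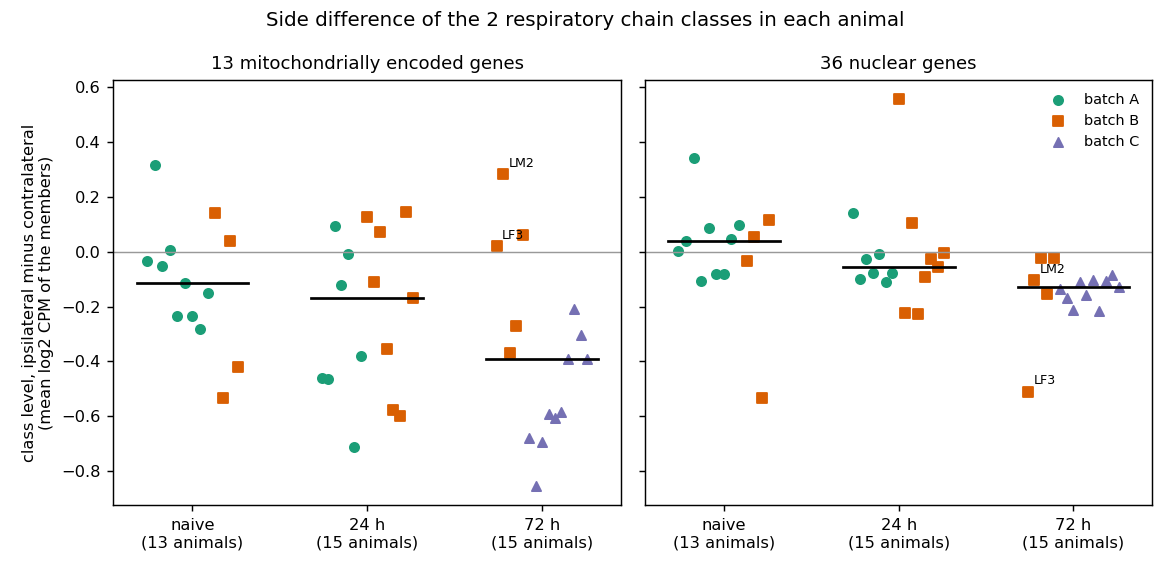
Mean log2 CPM of the mitochondrial (left) and nuclear (right) members in each animal, ipsilateral minus contralateral, for naive, 24 h and 72 h mice, with points for animals, lines for the medians and marks by batch. At 72 h all 15 animals lie below 0 for the nuclear members and 12 of 15 for the mitochondrial members.

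As a mean over the class, the mitochondrial members were lower ipsilaterally in 9 of 13 naive animals (median difference -0.114, range -0.535 to 0.318), in 11 of 15 at 24 h (median -0.167, range -0.711 to 0.145) and in 12 of 15 at 72 h (median -0.39, range -0.855 to 0.282). For the nuclear members the counts were 5 of 13 (median 0.039), 12 of 15 (median -0.055) and 15 of 15 (median -0.13, range -0.51 to -0.022). The lowest nuclear value at 72 h belonged to LF3 and the highest mitochondrial value to LM2. The class values overlap between times in both classes.

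mt-Nd2, a core subunit of the proton-pumping arm of complex I, was lower on the injured side at 24 h and 72 h, and at 72 h also in the contrast with the side difference of naive mice. In naive mice it ranged from 1960 to 4210 CPM contralaterally (median 3820) and from 1730 to 4780 ipsilaterally (median 3530). At 24 h the ranges were 2280 to 3870 (median 2950) and 2040 to 3170 (median 2430), and at 72 h 1990 to 7560 (median 2540) and 1650 to 6870 (median 1920), the highest values being those of LF3. The sides overlapped as groups, but within animals mt-Nd2 was lower ipsilaterally in 6 of 13 naive mice, 14 of 15 at 24 h and 14 of 15 at 72 h. The side difference was -0.24 ± 0.05 (log2, SE) at 24 h (adjusted p = 0.000125) and -0.36 ± 0.05 at 72 h (adjusted p = 7.19e-08), where it fell by 22.3%.

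3 further complex I members of mitochondrial DNA were lower at both times. mt-Nd1 ranged from 3170 to 5930 CPM contralaterally (median 5370) and 2320 to 6370 ipsilaterally (median 5060) in naive mice, and medians were 4450 and 3690 at 24 h, and 4020 and 3030 at 72 h. It was lower ipsilaterally in 13 of 15 animals at each time, by -0.21 ± 0.06 at 24 h (adjusted p = 0.00292) and -0.32 ± 0.06 at 72 h (adjusted p = 1.25e-05). mt-Nd5 had medians of 3550 CPM contralaterally and 2760 ipsilaterally at 72 h and was lower in 14 of 15 animals at each time. Its side difference was -0.24 ± 0.07 at 24 h (adjusted p = 0.00194) and -0.27 ± 0.07 at 72 h (adjusted p = 0.000512). mt-Nd6 is the only member on the other strand, and with the strand setting unknown its counts may hold reads of the opposite strand. It ranged from 611 to 1230 CPM contralaterally and 739 to 957 ipsilaterally at 72 h. It was lower in 11 of 15 animals at 24 h (-0.2 ± 0.06, adjusted p = 0.00515) and 14 of 15 at 72 h (-0.33 ± 0.06, adjusted p = 1.05e-05). mt-Nd4 had estimates of -0.18 ± 0.09 (adjusted p = 0.0915) and -0.2 ± 0.09 (adjusted p = 0.0611) and did not pass, while without LF3 it passed at 72 h (-0.24 ± 0.08, adjusted p = 0.0101), as it did with no filter on low counts. mt-Nd3 (-0.33 ± 0.16, then -0.13 ± 0.16) and mt-Nd4l (-0.37 ± 0.3, then -0.44 ± 0.31), both with a nuclear copy, passed at neither time.

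mt-Cytb, the cytochrome b of complex III, had medians of 5530 CPM contralaterally and 4470 ipsilaterally at 72 h. It missed the threshold at 24 h (-0.14 ± 0.06, adjusted p = 0.0611) and was lower at 72 h (-0.23 ± 0.06, adjusted p = 0.00194; 14 of 15 animals). mt-Co1, the catalytic core of complex IV and the most abundant member per length, ranged from 11100 to 26400 CPM contralaterally (median 19000) and 8090 to 23100 ipsilaterally (median 18600) in naive mice. At 24 h it ranged from 11500 to 18800 (median 15700) and from 12200 to 16900 (median 13600), and at 72 h from 9570 to 46200 (median 14200) and from 8950 to 52500 (median 10800). LF3 gave the highest 72 h values and the sides overlapped at each time. mt-Co1 was lower ipsilaterally in 7 of 13 naive mice, 11 of 15 at 24 h and 13 of 15 at 72 h, by -0.16 ± 0.07 (adjusted p = 0.041) and then -0.33 ± 0.07 (adjusted p = 5.6e-05). Its 24 h call was lost with mitochondrial genes left out of library sizes, with no animal block and in batch A or B alone.

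Estimates for the copied members of complexes IV and V were larger and less precise. mt-Co2, with 72 h medians of 78.9 CPM contralaterally and 60.5 ipsilaterally, was lower at both times (-0.5 ± 0.14, adjusted p = 0.00308; -0.53 ± 0.14, adjusted p = 0.00148). mt-Co3 (62.2 and 43.5 CPM) was lower at 72 h in this fit (-0.27 ± 0.16, adjusted p = 0.171; -0.43 ± 0.16, adjusted p = 0.0212), as was the complex V subunit mt-Atp6 (71 and 44.1 CPM; -0.27 ± 0.19, adjusted p = 0.251; -0.79 ± 0.19, adjusted p = 0.000398). The change from 24 to 72 h passed for neither in this fit, but that of mt-Atp6 did with no filter on low counts and without LF3, PF1 and PM1 (-0.67 ± 0.26, adjusted p = 0.0352). With no filter both were also called at 24 h. mt-Atp8, at a median of 0.663 CPM or less per side at 72 h, gave -0.11 ± 0.36 and -0.57 ± 0.35 and passed at neither time. Of the 5 members with no listed copy 4 were lower at 24 h (median -0.21) and 5 at 72 h (median -0.32).

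**Figure D3:**
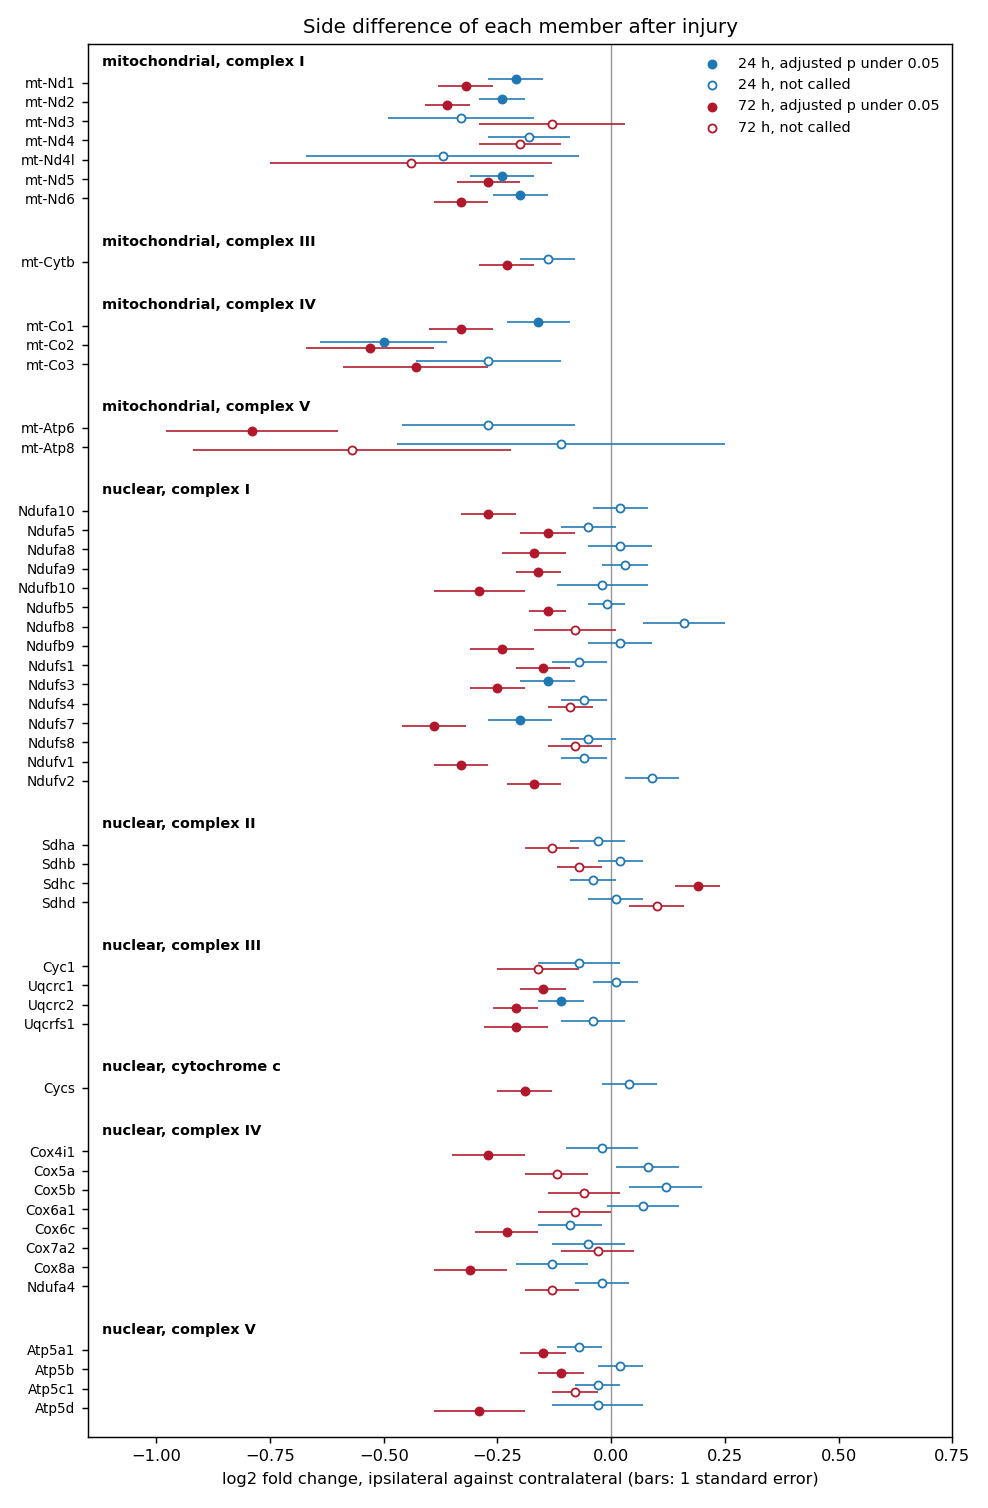
Log2 fold change of ipsilateral against contralateral for each of the 49 members at 24 h and 72 h, grouped by class and complex, with bars of 1 standard error and filled points for calls at an adjusted p under 0.05. All 13 mitochondrial members lie below 0 at both times, 34 of 36 nuclear members lie below 0 at 72 h, and Sdhc and Sdhd lie above.

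Among nuclear members 12 of the 15 subunits of complex I were lower at 72 h and none higher (median -0.17), when 30.6% of all genes were lower, and 2 of 15 were lower at 24 h, when 24.1% were. Ndufs7, an iron-sulfur subunit next to the ubiquinone site, ranged from 47.6 to 125 CPM contralaterally (median 72.8) and 63.2 to 100 ipsilaterally (median 72.3) in naive mice. At 24 h the ranges were 52.7 to 89.7 (median 72.8) and 55 to 69.6 (median 63.3), and at 72 h 64.8 to 166 (median 72.7) and 51.2 to 77.5 (median 57.6). The sides overlapped at each time, and it was lower ipsilaterally in 7 of 13, 13 of 15 and 15 of 15 animals. The side difference was -0.2 ± 0.07 at 24 h (adjusted p = 0.0218) and -0.39 ± 0.07 at 72 h (adjusted p = 9.11e-06). Ndufv1, which binds NADH and the flavin, ranged at 72 h from 124 to 182 CPM contralaterally (median 151) and from 55.9 in LF3 to 148 ipsilaterally (median 126), and was lower in 15 of 15 animals (-0.33 ± 0.06, adjusted p = 1.69e-06), but in 11 of 15 at 24 h, when it was not called. Ndufa10, an accessory subunit, had medians of 115 and 102 CPM at 72 h, was lower in 15 of 15 animals there (-0.27 ± 0.06, adjusted p = 0.000136) and in 8 of 15 at 24 h. Ndufs3, a core subunit of the peripheral arm, was lower at 24 h (-0.14 ± 0.06, adjusted p = 0.0408) and at 72 h (-0.25 ± 0.06, adjusted p = 0.000316). The 24 h calls of Ndufs3 and of Uqcrc2, below, were lost with DESeq2, with no filter on low counts, with mitochondrial genes left out of library sizes, with no animal block and in each batch alone. Ndufb9, Ndufb10, Ndufv2, Ndufa5, Ndufa8, Ndufa9, Ndufb5 and Ndufs1 were lower at 72 h as well. Ndufs4, Ndufs8 and Ndufb8 did not pass, with estimates of -0.09, -0.08 and -0.08.

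Of the 4 members of complex II, succinate dehydrogenase, none was lower and 1 was higher at 72 h, beside 30.6% and 31.1% of all genes. Sdhc, one of its membrane anchors, ranged from 52.6 to 100 CPM contralaterally (median 61.5) and 51.2 to 87.4 ipsilaterally (median 65.1) in naive mice, and from 43.3 to 69.6 (median 63.4) and 54.5 to 69.1 (median 60.8) at 24 h. At 72 h it ranged from 62.1 to 504 (median 64.8) and from 69.4 to 398 (median 78.7), with LF3 highest on each side and the sides overlapping. It was higher ipsilaterally in 14 of 15 animals, LF3 being the exception at -0.34, with a side difference of 0.19 ± 0.05 (adjusted p = 0.00136) and of 0.24 ± 0.05 without LF3 (adjusted p = 1.71e-05). Sdhd, the other anchor, was higher in 13 of 15 animals, with 0.1 ± 0.06 (adjusted p = 0.163) and 0.16 ± 0.06 without LF3 (adjusted p = 0.0144). The catalytic subunits gave -0.13 ± 0.06 for Sdha, the flavoprotein (adjusted p = 0.059; -0.16 ± 0.04, adjusted p = 0.00086 without LF3), and -0.07 ± 0.05 for Sdhb, the iron-sulfur protein (adjusted p = 0.25).

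In complex III 3 of 4 members were lower at 72 h (30.6% of all genes), as was cytochrome c. Uqcrc2, a core scaffold protein, had medians of 143 and 118 CPM at 72 h and was lower at 24 h (-0.11 ± 0.05, adjusted p = 0.0363) and at 72 h (-0.21 ± 0.05, adjusted p = 9.59e-05), each in 13 of 15 animals. Uqcrc1 (-0.15 ± 0.05, adjusted p = 0.00819; 15 of 15 animals) and the Rieske protein Uqcrfs1 (-0.21 ± 0.07, adjusted p = 0.0116) were lower at 72 h, the latter not without LF3 (-0.12 ± 0.06, adjusted p = 0.0615). Cycs, the mobile electron carrier cytochrome c, had medians of 82.2 and 70.8 CPM and was lower in 14 of 15 animals (-0.19 ± 0.06, adjusted p = 0.00929). Cyc1 gave -0.16 ± 0.09 (adjusted p = 0.105).

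In complex IV 3 of 8 members were lower at 72 h, a share close to the 30.6% of all genes. Cox8a, a small subunit, ranged from 159 to 523 CPM contralaterally (median 303) and 230 to 439 ipsilaterally (median 338) in naive mice, and from 165 to 343 (median 303) and 228 to 303 (median 269) at 24 h. At 72 h it ranged from 268 to 4850 (median 311) and from 215 to 7470 (median 240), LF3 being highest on both sides. The sides overlapped. It was lower ipsilaterally in 6 of 13, 12 of 15 and 14 of 15 animals, by -0.31 ± 0.08 at 72 h (adjusted p = 0.00117). Cox6c gave -0.23 ± 0.07 (adjusted p = 0.00278) and Cox4i1, which regulates the enzyme, -0.27 ± 0.08 (adjusted p = 0.00537). LF3 moved these estimates in opposite directions: its own difference was -1.97 for Cox4i1, 0.94 for Cox6c and 0.62 for Cox8a. Without LF3 the estimates were -0.15 ± 0.05, -0.28 ± 0.05 and -0.35 ± 0.07 in that order, less alike than with it, and all were still called. Cox5a, Cox5b, Cox6a1 and Cox7a2 had estimates of -0.12 to -0.03 and did not pass. Ndufa4 gave -0.13 ± 0.06 (adjusted p = 0.0841) and passed without LF3 (-0.17 ± 0.05, adjusted p = 0.00201).

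In complex V, the ATP synthase, 3 of 4 members were lower at 72 h (30.6% of all genes). Atp5d, the delta subunit of the stalk, had medians of 181 and 156 CPM and was lower in 15 of 15 animals (-0.29 ± 0.1, adjusted p = 0.011; -0.18 ± 0.08 without LF3, adjusted p = 0.038). Atp5a1 was lower by -0.15 ± 0.05 (adjusted p = 0.00552). Atp5b, the catalytic beta subunit, was lower by -0.11 (adjusted p = 0.0432) but not without LF3 (-0.06 ± 0.04, adjusted p = 0.25). Atp5c1 gave -0.08 ± 0.05 (adjusted p = 0.163).

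**Figure D4:**
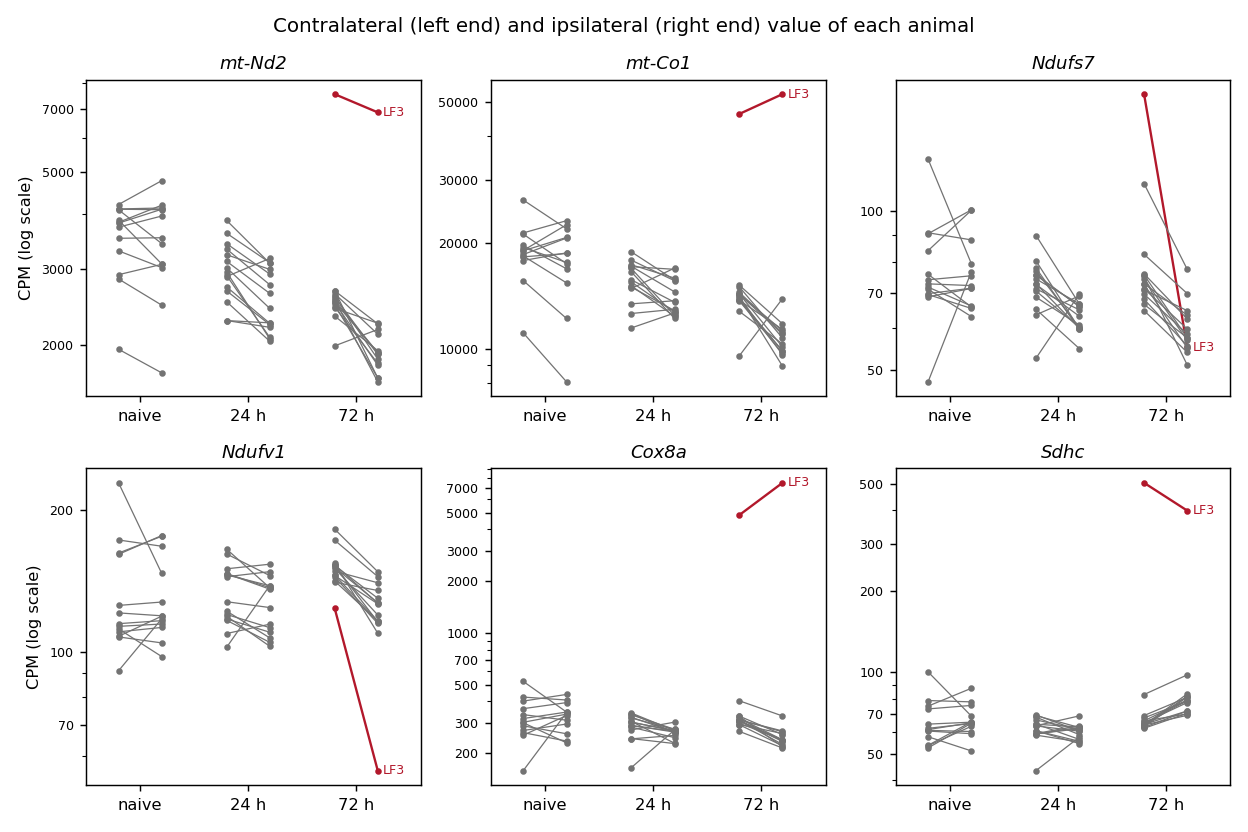
CPM on a log scale of mt-Nd2, mt-Co1, Ndufs7, Ndufv1, Cox8a and Sdhc in naive, 24 h and 72 h mice, with a line per animal from its contralateral (left end) to its ipsilateral value (right end). At 72 h Ndufs7 and Ndufv1 fall in 15 of 15 animals, mt-Nd2 and Cox8a in 14, mt-Co1 in 13, and Sdhc rises in 14.

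Leaving out LF3 left 10 mitochondrial members lower at 72 h, the same 9 and mt-Nd4, and 20 nuclear members lower with 2 higher. Of all genes 30.4% were then lower and 33.7% higher. Of the 23 nuclear calls 19 were shared; Atp5b, Uqcrfs1, Ndufb10 and Ndufa8 were lost and Sdha, Ndufa4 and Sdhd gained. At 72 h the counts of calls and the mitochondrial medians were not alike in the batches. In the 10 animals of batch C alone 12 of 13 mitochondrial members were lower (median -0.45), and 29 nuclear members were lower and 2 higher (median -0.14), when 35.1% of all genes were lower and 35.9% higher. In the 5 animals of batch B alone no mitochondrial member was called (median -0.02) and 1 nuclear member, Ndufs7, was lower (median -0.1), when 15.2% of all genes were lower and 21.1% higher. mt-Nd2, for example, was -0.46 ± 0.06 in batch C and -0.12 ± 0.1 in batch B. Whether the batches differ was not tested, and batch B holds LF3 and LM2. Removing LF3 and LM2 left 9 mitochondrial members lower (8 of them shared with the full set) and 17 nuclear, beside 29.9% of all genes. At 24 h 1 mitochondrial member, the copied mt-Co2, was lower in batch A alone (median -0.15; 15.8% of all genes lower) and 3 in batch B alone (median -0.24; 11.2% of all genes lower). Of the 5 members with no listed copy 0 were lower in batch A (median -0.07) and 3 in batch B (median -0.28).

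Set against the side difference of naive mice, fewer members passed. These contrasts share the naive animals. At 24 h mt-Nd2 alone was lower (-0.19 ± 0.08, adjusted p = 0.0484), as 14.7% of all genes were. That call was lost with no filter on low counts, with gene length offsets, with mitochondrial genes left out of library sizes, with no animal block and in batch A or B alone. No nuclear member was called at 24 h (none at an unadjusted p under 0.05, and none with DESeq2). At 72 h mt-Nd2 (-0.32 ± 0.08, adjusted p = 0.000627) and mt-Nd6 (-0.31 ± 0.09, adjusted p = 0.00418) were lower, and 9 of 36 nuclear members, against 23.1% of all genes lower and 25.1% higher. Without LF3 mt-Nd1 and mt-Co1 joined them (4 of 13, beside 23.8% of all genes lower). Without LF3 and LM2 the count was 6 (23.1% of all genes lower). The 9 nuclear members were Ndufs7 (-0.38 ± 0.11, adjusted p = 0.00275), Ndufv1 (-0.31 ± 0.08, adjusted p = 0.00124), Uqcrc2 (-0.21 ± 0.07, adjusted p = 0.00851), Cox8a (-0.36 ± 0.12, adjusted p = 0.0118), Cox6c (-0.26 ± 0.1, adjusted p = 0.0233), Ndufa9, Ndufa10, Ndufb5 and Ndufb9. Without LF3 7 of the 9 remained, Ndufa9 and Ndufb9 were lost, and Cycs and Ndufa4 (lower) and Sdhc (higher, 0.21 ± 0.07, adjusted p = 0.00887) were gained. In complexes II and V none was called, and Sdhc, Cycs, Atp5a1 and Atp5d had adjusted p of 0.0763, 0.0521, 0.104 and 0.123. In batch B alone none of either class was called and the medians were 0.23 and 0.01.

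From 24 to 72 h the side difference fell for 6 of 36 nuclear members, when 16.4% of all genes were lower, and rose for 1 of 36, when 18.9% of all genes were higher. Ndufa10 (-0.29 ± 0.08, adjusted p = 0.00577), Ndufv1 (-0.26 ± 0.08, adjusted p = 0.00649), Ndufv2 (-0.26 ± 0.08, adjusted p = 0.00882), Ndufa9, Ndufb9 and Cycs were lower and Sdhc was higher (0.23 ± 0.07, adjusted p = 0.00974). No mitochondrial member was called (none at an unadjusted p under 0.05; median -0.11). Without LF3 and LM2 4 of them were lower, namely mt-Co1, mt-Nd1, mt-Nd2 and mt-Nd6, when 17.1% of all genes were.

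The difference between females and males in the side difference passed for no member at 24 h or 72 h. In this fit no member reached an unadjusted p under 0.05 in either contrast, DESeq2 called none, and 0 to 0.0251% of all genes were called. The contrast includes PF1, whose ipsilateral library goes against its label. At 72 h the median of female minus male was -0.19 for mitochondrial and -0.08 for nuclear members. Without LF3, PF1 and PM1 it was -0.28 and -0.06, with 4 of 13 mitochondrial members at an unadjusted p under 0.05, and without LF3 and LM2 it was -0.1 and -0.04, with 0. With no filter on low counts 4 mitochondrial members were under 0.05.

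Between animals the injured side can be set against naive punches, with batch as a term. At 24 h Ndufs3, Ndufs7, Ndufs8, Ndufa8, Cox4i1 and Atp5c1 were lower in the ipsilateral punch (6 of 36 nuclear members, median -0.13, against 20.1% of all genes lower) and mt-Nd2 was the only mitochondrial call (-0.34 ± 0.13, adjusted p = 0.0305), which was lost without naive animal KF2, without naive animal KM2 and in batch B alone. LF3 is a 72 h animal but shares the estimate of spread, and without it 19 nuclear and 4 mitochondrial members were lower, as were 4758 of 19062 genes. Ndufs7 (-0.33 ± 0.05, adjusted p = 2.19e-06), Cox8a (-0.38 ± 0.06, adjusted p = 1.99e-06), Cox6c (-0.31 ± 0.05, adjusted p = 5.39e-07) and Sdhc (-0.19 ± 0.05, adjusted p = 0.00232) were among them. Of the mitochondrial members mt-Nd2 (-0.35 ± 0.07, adjusted p = 2.88e-05), mt-Nd1, mt-Co1 and mt-Atp6 passed.

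At 72 h this comparison rests on batch B, because batch C has no naive mice, and LF3 turned its direction. With LF3 7 mitochondrial members were higher in the injured punch than in naive (median 0.8, 27.8% of all genes higher) and 12 nuclear members were higher and 5 lower (20.7% of all genes lower). Without LF3 the mitochondrial median was -0.3, with mt-Nd1 (-0.3 ± 0.12, adjusted p = 0.0381), mt-Nd2 (-0.37 ± 0.11, adjusted p = 0.00465) and mt-Co1 (-0.35 ± 0.13, adjusted p = 0.0244) lower and mt-Nd4l higher (1.18 ± 0.49, adjusted p = 0.0455). No nuclear member was then higher and 8 were lower: Ndufs7 (-0.4 ± 0.09, adjusted p = 0.000292), Cox8a (-0.45 ± 0.1, adjusted p = 0.000367), Cox6c (-0.34 ± 0.08, adjusted p = 0.000371), Ndufv1, Ndufs3, Ndufa10, Ndufb5 and Cox4i1. Every mitochondrial call with LF3 except that of mt-Nd4l was lost or reversed without it. The change from 24 to 72 h turned the same way, from 11 mitochondrial members higher to 0 and from 16 nuclear to 2, beside 21.7% of all genes higher and 15.3% lower with LF3.

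In the contralateral punch few members passed against naive. At 24 h 0 of 13 mitochondrial members passed (none at an unadjusted p under 0.05, none with DESeq2), and Ndufs8 was lower (-0.23 ± 0.07, adjusted p = 0.0483), while 1.29% of all genes were lower and 0.819% higher. Without LF3 mt-Nd1 (-0.19 ± 0.06, adjusted p = 0.0431) and 5 nuclear members, Ndufs4, Ndufs8, Ndufa8, Ndufb5 and Cox6c, were lower, as were 750 of 18429 genes. At 72 h mt-Co3 was higher with LF3 (2.7 ± 0.55, adjusted p = 0.0167; 0.244% of all genes higher) and not without it (0.41 ± 0.27, adjusted p = 0.953), and the medians of the classes went from 0.54 and 0.34 to -0.21 and -0.05. No nuclear member passed with or without LF3. From 24 to 72 h 5 mitochondrial and 19 nuclear members were higher with LF3, when 8.41% of all genes were higher and 0.803% lower, and 0 of each were higher without it.

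As a share of all counts, the 13 mitochondrial members had medians of 4.404% contralaterally and 4.154% ipsilaterally in naive mice, 3.878 and 3.39% at 24 h, and 3.37 and 2.837% at 72 h. The share was lower ipsilaterally in 7 of 13, 12 of 15 and 13 of 15 animals. The 36 nuclear members held 0.525 and 0.553% in naive mice and 0.5955 and 0.581% at 72 h. Shares between times also cross batches: batch A naive mice had a contralateral median of 4.576% and batch B naive mice 3.72%.

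The tilt toward short genes was compared with both classes, since many respiratory chain transcripts are short. Within animals the median difference in tilt between the sides was 0.005 in naive mice, 0.001 at 24 h and 0.016 at 72 h. The ranges were -0.049 to 0.039, -0.016 to 0.014 and -0.003 to 0.081, the last value being that of LM2. At 72 h 14 of 15 animals had less of a tilt toward short genes on the injured side. With offsets that take out the trend on gene length, 9 mitochondrial and 20 nuclear members were lower at 72 h and 2 nuclear members higher. Of all genes 29.8% were then lower and 32.4% higher. At 24 h 7 mitochondrial and 3 nuclear members were lower with these offsets, beside 23.5% of all genes. By summed length of annotated exons, the 18 shorter and 18 longer nuclear members were each lower ipsilaterally in 15 of 15 animals at 72 h. Their medians were -0.134 and -0.138. Of cytosolic ribosomal proteins, which are short nuclear transcripts, 38 of 45 were higher at 24 h (median 0.34) and none lower. At 72 h 41 of 45 were higher (median 0.56) and none lower. Of all genes 23.7% were higher at 24 h and 31.1% at 72 h. The mean of the ribosomal proteins was higher ipsilaterally in 14 of 15 animals at 72 h, LF3 being the exception at -0.299. What part the tilt has in the side difference of either class was not tested.

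**Figure D5:**
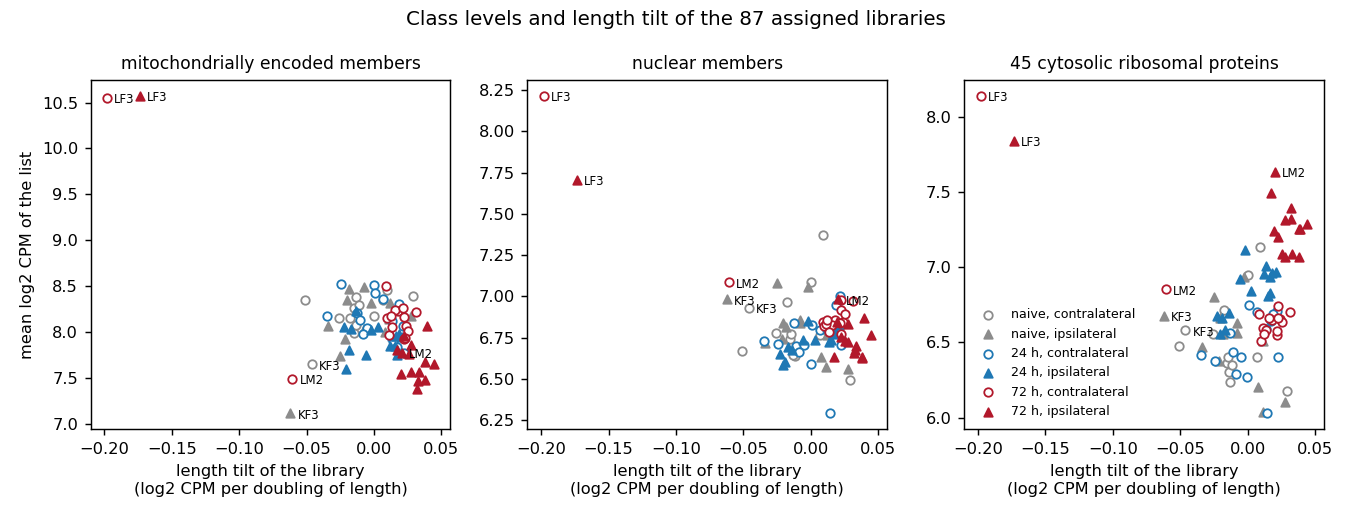
Mean log2 CPM of the 13 mitochondrial members, the 36 nuclear members and 45 cytosolic ribosomal proteins (panels from left to right) against the length tilt of each of the 87 assigned libraries, in log2 CPM per doubling of gene length. The LF3 libraries sit at tilts of -0.198 and -0.1735 with the highest levels in all 3 panels.

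Cell type markers also differed between the sides. Of all genes 24.1% were lower and 23.7% higher at 24 h, and 30.6% and 31.1% at 72 h. At 24 h 4 of 12 neuron markers were lower and 2 higher (median -0.05), and their summed level had medians of 9278 CPM contralaterally and 8785 ipsilaterally, lower on the injured side in 12 of 15 animals. Of 8 astrocyte markers 5 were lower and 2 higher at 24 h (median -0.37), and their summed level was lower ipsilaterally in 15 of 15 animals at 24 h (medians 5978 and 3892 CPM) and in 15 of 15 at 72 h (5982 and 3984 CPM), against 9 of 13 naive animals. Monocyte and macrophage markers were higher in 7 of 8 at 24 h, from 6.026 to 19.08 CPM contralaterally and from 56.35 to 313.9 ipsilaterally. The summed level of pericyte and smooth muscle markers was lower ipsilaterally in 15 of 15 animals at 24 h, that of oligodendrocyte precursors in 14, and those of microglia and of meninges and fibroblasts in 12. It was higher in 15 of 15 for neutrophils and red cells, in 14 for endothelium and in 11 for oligodendrocytes. At 72 h it was higher for all 8 of these lists, in 13 to 15 of 15 animals, so that of microglia was lower at 24 h and higher at 72 h. At 72 h 11 of 12 neuron markers were lower and none higher (median -0.45), among them Snap25 (-0.93 ± 0.06) and Nefl (-0.82 ± 0.06). The summed level of neuron markers then ranged from 7862 to 10670 CPM contralaterally and from 4442 to 8056 ipsilaterally without LF3, which stood at 17570 and 15740. Microglia markers were higher in 6 of 7 (median 1.41; 332.9 to 416 CPM contralaterally and 337.4 to 1479 ipsilaterally) and monocyte and macrophage markers in 8 of 8 (median 4.4; 8.892 to 22.07 and 203.9 to 1213 CPM). The part of these cells in the respiratory chain result was not tested.

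Other genes of mitochondrial function give the surroundings of the chain at 72 h, when 30.6% of all genes were lower and 31.1% higher. Of 41 further nuclear subunits 7 were lower and 4 higher (median 0.01). Ndufa6 was lower (-0.16 ± 0.05) and Atp5g2 and Uqcrb were higher (0.4 ± 0.09 and 0.38 ± 0.09). Of 38 assembly factors 16 were lower and 2 higher (median -0.12), with Ndufaf5 (-0.51 ± 0.05), needed to build complex I, and Ttc19 (-0.49 ± 0.05), needed for complex III, the clearest. Alternative isoforms split: Cox6a2, an isoform of heart and muscle, was lower (-1.02 ± 0.14), while Ndufa4l2 (0.73 ± 0.15), Cox7a1 (0.77 ± 0.25) and Cox6b2 (0.69 ± 0.25) were higher. In the tricarboxylic acid cycle and pyruvate dehydrogenase 9 of 17 were lower and 3 higher (median -0.16), led by the isocitrate dehydrogenase subunits Idh3b (-0.37 ± 0.04) and Idh3g (-0.38 ± 0.04).

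Genes that maintain mitochondria also differed between the sides at 72 h, beside 30.6% of all genes lower and 31.1% higher. Of 12 genes of mitophagy and mitochondrial dynamics 8 were lower and 1 higher (median -0.27), including the kinase Pink1 (-0.7 ± 0.09), the mitophagy receptor Bnip3 (-0.52 ± 0.05) and the fusion protein Mfn2 (-0.31 ± 0.04). The coactivators of mitochondrial biogenesis Ppargc1a (-0.58 ± 0.06) and Ppargc1b (-0.83 ± 0.09) were lower, and Gabpa (0.72 ± 0.07) and Pprc1 (0.45 ± 0.07) higher. Genes that replicate, transcribe and process mitochondrial DNA and RNA had 8 higher and 7 lower of 26 (median -0.02), near the shares of all genes at 72 h. The mitochondrial ribosomal RNAs mt-Rnr1 (-0.51 ± 0.28, adjusted p = 0.112) and mt-Rnr2 (-0.45 ± 0.25, adjusted p = 0.115) did not pass. Ucp2, a carrier of the inner membrane found in microglia and macrophages, was higher (2.79 ± 0.13), whereas Slc25a14, a related carrier of brain, was lower (-0.57 ± 0.05).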

How the data were processed

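The authors deposited raw counts per gene for each library. Per the submitters' processing notes, HISAT2 2.0.5 and the mm10 build were used; no source used here gives the counting program, annotation or strand setting. GENCODE M21 symbols matched 54495 genes, and the 37 without one held 0.013% of counts. The members and gene lists were chosen with earlier results of these data known. Counts were tested with edgeR 4.0.16 (R 4.3.3): filterByExpr, TMM scaling, quasi-likelihood F test, Benjamini-Hochberg adjustment over all genes, called at an adjusted p under 0.05. The side fit used 86 libraries of 43 animals with the animal, given by the labels, as a block (19946 genes). The ipsilateral fit (43 libraries, 19126 genes) and the contralateral fit (44 libraries, 18436 genes) used groups of sex and time with batch as a term, the sexes weighted equally. CPM are TMM-scaled, and class levels are mean log2 CPM with a prior count of 2. Full statistics are given for the mitochondrial members, for each nuclear complex's smallest p-values (3 at 24 h and 2 at 72 h against naive) and for members called against their class; of other lists up to 4, of which 1 result is not reported here. All 49 members may be named. The self-test recovered 60% of simulated 1.3-fold and 14% of 1.15-fold changes in the 72 h side comparison (19265 genes), with 0.901% of calls false. In the ipsilateral comparison of 72 h with naive (18555 genes) it recovered less. There it found 42% of 1.5-fold, 10% of 1.3-fold and 0% of 1.15-fold changes, and 8.06% of calls were false. Alternatives covered filtering, DESeq2 1.42.0, blocks, batches, library sizes, length offsets and left-out animals; leaving out LF3 with LM2, and with KF3 too, was chosen after seeing the data. Of 278 pairs of libraries within groups none agreed within sampling noise; pairs across groups were not compared.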

Additional observations from a re-analysis of the deposited data

Results flagged for a closer look

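A test for a sample far from the rest of its group, which chance alone meets in about 1 in 20 tests, was run 48 times. It marked 11. The tests repeat the same groups over class levels, tilt and side differences, so they are not independent, and most marks came from LF3. The mean log2 CPM of the mitochondrial members was 10.554 in the contralateral and 10.575 in the ipsilateral library of LF3, with the nearest of the other 72 h females at 8.503 and 7.867. For the nuclear members LF3 stood at 8.216 and 7.706, the nearest at 6.921 and 6.832. The length tilt of its libraries was -0.198 and -0.1735, and its nuclear side difference was -0.51, the nearest being -0.218. The ipsilateral library of the naive female KF3 had the lowest mitochondrial level of its group, 7.119, with the nearest at 8.004. The contralateral library of the 72 h male LM2 stood at 7.498 with the nearest at 7.941, and its tilt was -0.0606. The ipsilateral library of the naive male EM3 had a tilt of 0.0276, apart from its group.

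The side difference of 7 of 36 nuclear members differed between 72 h and 24 h by the test of that difference itself. Of them 6 were lower and 1 higher, beside 16.4% of all genes lower and 18.9% higher. The values, 72 h minus 24 h, were -0.26 for Ndufv1, -0.29 for Ndufa10, -0.26 for Ndufv2, -0.2 for Ndufa9, -0.23 for Cycs, -0.25 for Ndufb9 and 0.23 for Sdhc. With LF3 left out 6 of the 7 calls remained, Ndufb9 was lost, and Sdha and Cox6c were gained.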

How the results depend on the processing

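Counts are of members called, main value first; unless stated, the cause of a change was not tested. The 9 mitochondrial calls at 72 h between the sides all remained with DESeq2, without LF3, with gene length offsets, with mitochondrial genes left out of library sizes and in batch C alone; without LF3 and LM2 8 of 9 remained. Differences of 1.15-fold were mostly missed in the self-test, whose changed genes were drawn at random from all but the lowest counts. Ipsilaterally at 72 h against naive, differences of 1.3-fold were mostly missed too. Recovery among the members, many of which have high counts, was not tested, and some, such as Atp5b at 72 h, were called at estimates under 1.15-fold. mt-Nd3, mt-Nd4l and mt-Atp8 have few counts.

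With no filter on low counts, which tests more genes, 10.6% of all genes were lower at 24 h and 13.6% at 72 h between the sides, instead of 24.1 and 30.6%. The mitochondrial members lower were 11 instead of 6 at 24 h between the sides, 0 instead of 1 at 24 h minus naive, 7 instead of 2 at 72 h minus naive and 1 instead of 0 at 72 h minus 24 h. Nuclear members lower were 1 instead of 3 at 24 h and 13 instead of 22 at 72 h, and 0 instead of 1 were higher at 72 h minus 24 h. Against naive the nuclear members lower ipsilaterally were 3 instead of 6 at 24 h and 2 instead of 5 at 72 h, 0 instead of 1 from 24 to 72 h, and 0 instead of 1 contralaterally at 24 h.

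The animals pair the libraries, as the labels give. With no replicate block, mitochondrial members lower were 2 at 24 h, 5 at 72 h, 0 at 24 h minus naive and 1 at 72 h minus naive. Nuclear members lower were then 1 at 24 h, 14 at 72 h, 3 at 72 h minus naive and 2 at 72 h minus 24 h, with 0 higher at 72 h and 0 higher at 72 h minus 24 h.

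With fewer samples in batch A alone, mitochondrial members lower were 1 at 24 h between the sides, 0 at 24 h minus naive and 4 ipsilaterally at 24 h; nuclear were 1 at 24 h and 0 contralaterally, and the ipsilateral nuclear median was -0.04 instead of -0.13. In batch B alone mitochondrial members lower were 3 at 24 h, 0 at 72 h, 0 at 24 h minus naive, 0 at 72 h minus naive (median 0.23 instead of -0.28) and 0 ipsilaterally at 24 h. Nuclear members lower there were 0 at 24 h, 1 at 72 h with 0 higher, 0 at 72 h minus naive (median 0.01 instead of -0.15) and 0 at 72 h minus 24 h with 0 higher. The ipsilateral nuclear median at 24 h was -0.25 and 0 were lower contralaterally. Members higher in batch B were 0 mitochondrial and 0 nuclear ipsilaterally at 72 h against naive, 0 and 5 from 24 to 72 h with 0 nuclear lower, and 0 contralaterally at 72 h and 0 and 0 from 24 h. In batch C alone 2 nuclear members were higher at 72 h.

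In batch B alone some estimates changed sign. At 24 h between the sides mt-Co3 was 0.02 and mt-Atp8 0.54. At 72 h mt-Nd3 was 0.21, mt-Nd4 0.25, mt-Nd4l 0.78, mt-Nd5 0.02, mt-Cytb 0.03, mt-Atp8 0.35 and Atp5c1 0.01. At 72 h minus naive mt-Nd6 was 0.04, Uqcrc2 0.13, Cox8a 0.01, Cox6c 0.04 and Cycs 0.07. Cox5b at 72 h was 0.01 without LF3 and LM2, and the same without KF3 too.

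With DESeq2 1 nuclear member was lower at 24 h between the sides. Members higher ipsilaterally at 72 h were 3 mitochondrial and 3 nuclear against naive and 4 and 7 against 24 h; contralaterally 0 mitochondrial against naive and 1 and 7 against 24 h. With mitochondrial genes left out of library sizes 1 nuclear member was lower at 24 h and 0 mitochondrial at 24 h minus naive. With gene length offsets 2 nuclear were higher at 72 h, 0 mitochondrial lower at 24 h minus naive, 0 nuclear lower contralaterally at 24 h, and 3 mitochondrial higher contralaterally from 24 to 72 h. With no batch term 2 nuclear were lower ipsilaterally at 24 h, and at 72 h 1 mitochondrial (median -0.13) and 3 nuclear were higher; from 24 to 72 h 2 (median 0.13) and 6 were. Contralaterally 0 nuclear were lower at 24 h, and 1 mitochondrial and 0 nuclear higher from 24 to 72 h.

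Without LF3 2 nuclear members were higher at 72 h between the sides and 4 mitochondrial lower at 72 h minus naive. Ipsilaterally at 24 h 4 mitochondrial and 19 nuclear were lower. At 72 h 1 mitochondrial was higher (median -0.3 instead of 0.8), 8 nuclear lower and 0 higher; from 24 to 72 h 0 mitochondrial (median -0.07 instead of 1) and 2 nuclear were higher, and 0 lower. Contralaterally 1 mitochondrial and 5 nuclear were lower at 24 h, 0 mitochondrial higher at 72 h (medians -0.21 and -0.05), and 0 and 0 higher from 24 to 72 h (medians -0.15 and 0.07).

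Without LF3, PF1 and PM1 2 nuclear were higher at 72 h, 5 mitochondrial lower at 72 h minus naive and 1 at 72 h minus 24 h. Ipsilaterally 4 and 19 were lower at 24 h, 0 mitochondrial (median -0.33) and 0 nuclear higher and 8 nuclear lower at 72 h, and 0 (median -0.1) and 2 higher with 0 lower from 24 h. Contralaterally 4 nuclear were lower at 24 h, 0 mitochondrial higher at 72 h (medians -0.31 and -0.02), and 0 and 0 from 24 h (medians -0.25 and 0.11). Without PF1 and PM1, 8 nuclear were lower ipsilaterally at 72 h and 2 from 24 to 72 h, 0 contralaterally at 24 h, and 5 and 8 mitochondrial were higher contralaterally at 72 h and from 24 h.

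Without LF3 and LM2 2 nuclear were higher at 72 h, 6 mitochondrial lower at 72 h minus naive and 4 at 72 h minus 24 h. Ipsilaterally 4 and 18 were lower at 24 h, 1 mitochondrial (median -0.31) and 0 nuclear higher at 72 h, and 1 (median -0.06) and 2 higher with 0 lower from 24 h. Contralaterally 2 and 5 were lower at 24 h, 0 mitochondrial higher at 72 h (nuclear median -0.1), and 0 and 0 from 24 h (medians -0.06 and 0.05). Without KF3 as well 2 nuclear were higher at 72 h, and 2, 8 and 4 mitochondrial lower at 24 h minus naive, 72 h minus naive and 72 h minus 24 h. Ipsilaterally 8 and 17 were lower at 24 h, 1 mitochondrial (median -0.42) and 0 nuclear higher at 72 h, and 1 (median -0.09) and 2 with 0 lower from 24 h. Contralaterally 3 and 5 were lower at 24 h, 0 higher at 72 h (medians -0.18 and -0.1), and 0 and 0 from 24 h (medians -0.09 and 0.05).

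Ipsilaterally at 72 h against naive single members turned. Without LF3, without LF3, PF1 and PM1, without LF3 and LM2, and without KF3 too, mt-Nd1 was -0.3, -0.33, -0.32 and -0.43, mt-Nd2 -0.37, -0.42, -0.34 and -0.44, mt-Nd3 -0.2, -0.18, -0.19 and -0.27, mt-Co1 -0.35, -0.38, -0.39 and -0.5, and Cox8a -0.45, -0.44, -0.51 and -0.49. With no batch term mt-Nd1 was -0.22, mt-Nd2 -0.66 and mt-Co1 -0.46.

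Leaving out each naive and each 72 h animal of batch B in turn (no 24 h animal was left out) gave 0 to 4 mitochondrial and 5 to 19 nuclear members lower ipsilaterally at 24 h. At 72 h 1 to 10 mitochondrial (median -0.3 to 1) and 0 to 15 nuclear were higher and 2 to 8 nuclear lower, and from 24 to 72 h 0 to 11 (median -0.07 to 1.23) and 2 to 18 were higher and 0 to 2 lower. Contralaterally 0 to 1 and 0 to 5 were lower at 24 h, 0 to 4 mitochondrial higher at 72 h (medians -0.21 to 0.72 and -0.05 to 0.44), and 0 to 7 (median -0.15 to 0.8) and 0 to 22 (median 0.07 to 0.6) higher from 24 h. The ranges were -0.3 to 1.07 for mt-Nd1, -0.37 to 0.34 for mt-Nd2, -0.2 to 2.96 for mt-Nd3, -0.35 to 0.61 for mt-Co1 and -0.45 to 2.38 for Cox8a, ipsilaterally at 72 h.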

Other observations

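Of the nuclear copies of mitochondrial DNA, which no comparison above uses, 3 of 8 were lower on the injured side at 24 h. At 72 h 5 of 8 were (median -0.38), and none was higher at either time. Of all genes 24.1% were lower at 24 h and 30.6% at 72 h. Gm28661, the copy of mt-Co2, gave -0.43 ± 0.09 at 72 h (edgeR, adjusted p = 4.14e-05), beside -0.53 ± 0.14 for mt-Co2. Reads from a copy and from the mitochondrial gene cannot be told apart in these counts. Among mitochondrial ribosomal proteins, a list of 30, 6 were higher and 3 lower at 72 h (median 0.05), beside 31.1% and 30.6% of all genes. Mrps6 gave 2.11 ± 0.09 and Mrpl3 -0.39 ± 0.04. Of 15 proteins of the inner and outer membrane, 5 were higher and 5 lower, with Hspd1 (0.37 ± 0.05), a folding chaperone, and Tomm20 (-0.3 ± 0.04), an import receptor, at the ends.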
